A study of Rattus norvegicus with 4 samples.

Results

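The genes described here encode the enzymes of central carbon metabolism: glycolysis, the pentose phosphate pathway, gluconeogenesis and the tricarboxylic acid (TCA) cycle, with the isozymes and regulators that go with them. The 52 genes were listed by symbol for their function, with earlier results of these data known. Each was looked up in the deposited table through the RefSeq transcript of its row. Of these, 49 had a value on all 4 arrays among 6968 genes named in the table. The row of Hk3, a hexokinase of leukocytes, was blank on all 4 arrays, and no row matched Pgd (6-phosphogluconate dehydrogenase) or Sucla2 (a subunit of succinyl-CoA ligase). One row was used per gene, the brightest on average.

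Colon tissue of male Sprague Dawley rats was measured with one-color NimbleGen arrays, 2 for control and 2 for MSCT. The sample titles number the arrays as replicates, and neither they nor the paper say whether each array held RNA of a single rat. Values given for control rats or MSCT rats are those of these arrays. The MSCT rats were given colitis, a model of inflammatory bowel disease (IBD), by instilling trinitrobenzene sulfonic acid (TNBS) in ethanol into the colon, and then mesenchymal stem cells (MSCs) labeled with green fluorescent protein by way of the tail vein. The control rats received no MSCs. The paper sets the MSCT group against IBD rats on these arrays and gave its normal rats saline only, the sample descriptions call the controls normal rats, and the series text uses both names, so that colitis may or may not be shared by both groups. The samples were taken where the lesion lay, per the paper, and hold all the cell types of the colon wall, the age of the rats is not given in the sources used here, and the day of the chips differs within the paper.

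Glycolysis splits glucose to pyruvate in the cytosol, and many of its steps can be run by isozymes that differ between tissues. Pyruvate either becomes lactate or enters the mitochondrion, where the pyruvate dehydrogenase complex turns it into acetyl-CoA for the TCA cycle. Colonocytes are known for fueling this cycle largely with butyrate made by bacteria, whereas activated leukocytes and dividing cells lean on glycolysis.

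Values are log2 intensities as deposited, without further scaling, and a difference is the MSCT mean minus the control mean on that scale, so that 1 is a 2-fold change. Groups were compared with limma, a linear model that borrows the variance estimate from all 18350 measured rows. A gene passed the screen used here with a limma p under 0.05 before adjustment and a change over 2-fold. The thresholds are those of the study, which gives no test for the arrays by name, and with the plain test of its methods (the methods' t-test) 0 of the 49 genes passed them. The p-values were also adjusted over all rows by the Benjamini-Hochberg method. The number of arrays limits the precision: the smallest two-sided p that permuting 2 against 2 arrays can reach is 0.333. Array medians differed by at most 0.07 on the log2 scale, and the median difference over all rows was -0.02.

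Hk2, the inducible hexokinase that traps glucose in the cell, was the only one of the 49 genes past the screen, and it was higher in the MSCT group. In all, 3 of the 49 genes (6.12%) had an unadjusted limma p under 0.05, against 12.0% of all rows: Hk2 and Suclg1, a subunit of succinyl-CoA ligase, were higher, and Eno3, the muscle enolase, was lower. The background in each direction was 4.80% of rows higher and 7.17% lower. The 1 gene past the screen is 2.04% of the 49, against 4.63% of all rows (2.12% higher and 2.51% lower). After adjustment no gene of the 49 and no row of the table (0.00%) had a limma p under 0.05, and the smallest adjusted p among the genes was 0.289. These genes are bright on the array, and 44 of 49 belong to the brighter 50% of rows. Among those brighter rows 9.94% had an unadjusted p under 0.05 and 2.69% passed the screen. The shares of the metabolic genes lay below both backgrounds here. With the methods' t-test, without the dimmest 25% or 50% of rows and with the trend and robust options of eBayes, their share at an unadjusted p under 0.05 lay above that of all rows.

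Most of the genes differed little. The median difference of the 49 genes was 0.07, with 29 above and 20 below their controls, and the median size of a difference was 0.20, against 0.28 over all rows and 0.21 over the brighter rows. For 35 of the 49 genes the 95% interval of the difference lay wholly within a 2-fold change in either direction. For 14 it reached 2-fold or beyond. The interval lay within 2-fold for 9356 of all 18350 rows and for 6756 of the 9175 brighter rows. Both MSCT arrays lay above both control arrays for 15 genes (21.3% of all rows did so) and below them for 13 genes (24.5% of all rows). Together these 28 genes are 57.1% of the 49, against 45.8% of all rows and 50.9% of the brighter rows.

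**Figure D1:**
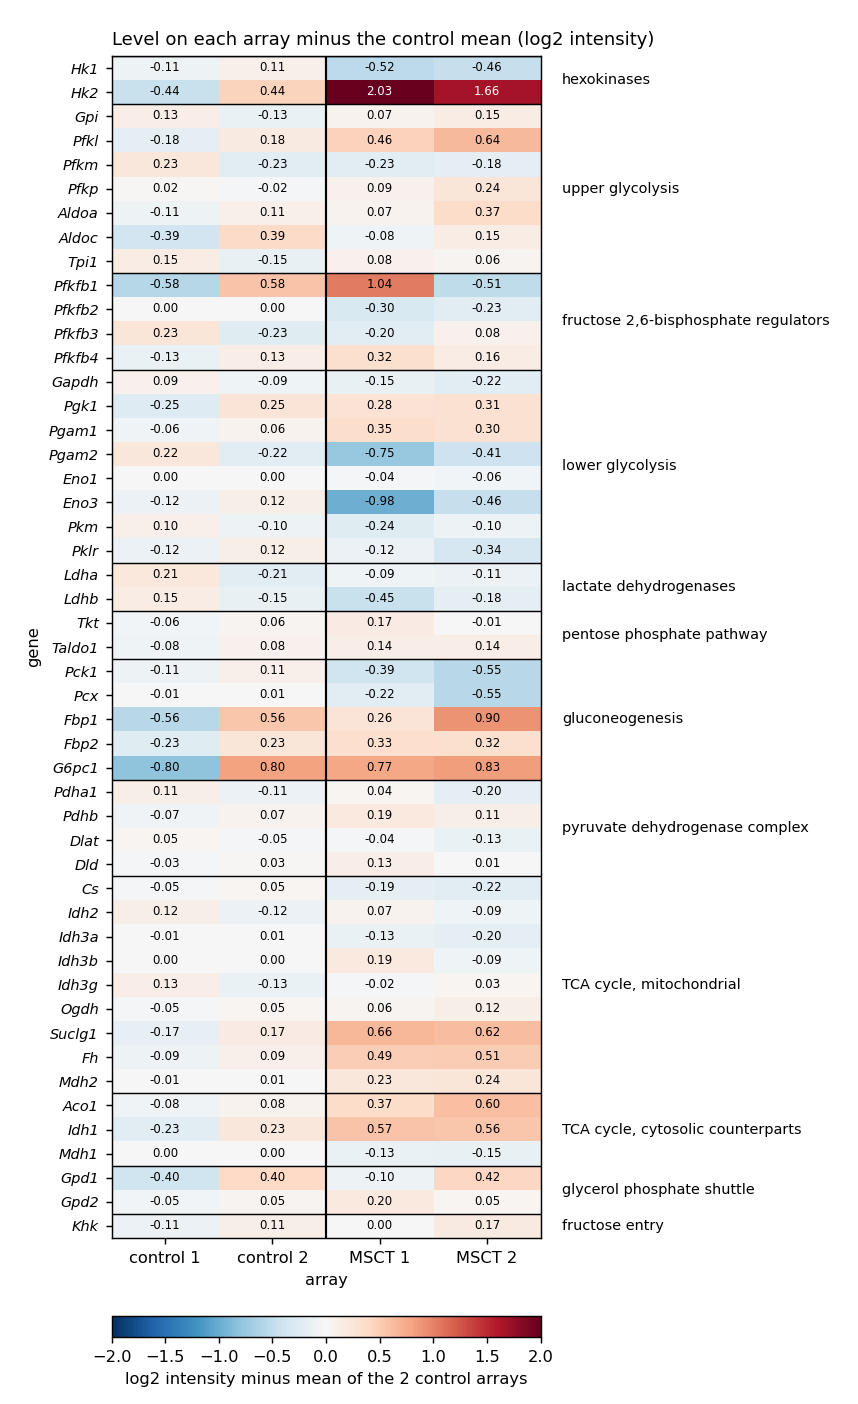
Level of each of the 49 genes on each of the 4 arrays (columns), as log2 intensity minus the mean of the 2 control arrays, written in each cell and colored from blue (lower) to red (higher), with genes grouped by role. Hk2 stands out with 2.03 and 1.66 in the MSCT rats, while the pyruvate dehydrogenase complex and most of the TCA cycle are near 0 on all 4 arrays.

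The hexokinases, which start glycolysis by adding phosphate to glucose, lay on opposite sides of their controls. Hk2 (row NM_012735) read 11.33 and 12.22 in the control rats and 13.80 and 13.44 in the MSCT rats. Both MSCT arrays lay well above both controls, although the controls were themselves far apart. The difference was 1.85 (SE 0.37, n = 2 per group), or 3.60-fold, with a 95% interval of 0.86 to 2.83, an unadjusted limma p of 0.0056 and an adjusted p of 0.289. Leaving out any 1 array kept it past the screen, with differences from 1.40 to 2.29. The methods' t-test, which takes the variance of each row alone, gave it an unadjusted p of 0.0613. Hk1, the constitutive hexokinase of most tissues, read 13.34 and 13.56 in the control rats and 12.93 and 12.99 in the MSCT rats. Its arrays did not overlap between groups, and its difference of -0.49 had an unadjusted limma p of 0.060. Within each array, the log2 ratio of Hk2 to Hk1 was thus 2.34 higher in the MSCT group, without overlap (exact permutation p = 0.333, the smallest that 2 arrays against 2 allow).

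Markers of other cells moved with the groups too. Since the samples are bulk tissue, fewer cells of a type and less RNA per cell cannot be told apart. Of 13 leukocyte markers 7 were measured. Their summed intensity was 3326 to 3612 in the control rats and 6295 to 7206 in the MSCT rats. At an unadjusted limma p under 0.05, 3 of the 7 were higher (Cd68, Csf1r and Lyz2). Cd3g, Cd4 and Cd8a overlapped between groups. Of the defining leukocyte markers, Cd79b, Itgam and S100a8 were blank on all 4 arrays, and Ptprc and Cd3e had no row. Enteric neuron and glia markers (10 of 11 measured) summed to 13099 to 14260 in the control rats and 9131 to 9661 in the MSCT rats, with 5 lower. Goblet cell markers had the largest relative change of the sums, from 2545 to 3039 in the control rats to 13670 to 14953 in the MSCT rats, and the 3 measured of 8 (Zg16 by 2.65, Tff3 by 1.49 and Retnlb by 1.52 on the log2 scale) were all past the screen, while Muc2 had no row. Red blood cell markers (3 of 6 measured) summed to 5451 to 7380 in the control rats and 11056 to 13290 in the MSCT rats, with 2 higher. Fibroblast and endothelial markers (6 of 10) summed to 26915 to 41248 and 44192 to 46517 with 1 higher, and fat cell markers (4 of 7) to 4020 to 5903 and 5181 to 5525 with 1 higher. Epithelial markers (11 of 13 measured) summed to 220243 to 224100 in the control rats and 241567 to 251375 in the MSCT rats, and colonic absorptive markers (7 of 9) to 72703 to 80231 and 89878 to 94733. Markers of the labeled tissue were thus measured on all 4 arrays, and both sums were higher on both MSCT arrays, although no single marker of these lists had an unadjusted limma p under 0.05. The part of these cells in the values of Hk2 and Hk1 was not tested.

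The promoters of the 3 genes with an unadjusted p under 0.05 are shown beside those of Ldha and Pgam1, because a regulator of glycolysis genes, Hif1a, was itself higher in the MSCT group (given with the regulators). Each runs from 250 bases before to 50 bases after the transcription start, 5′ to 3′, from RefSeq on GRCr8. Capitals mark ACGTG or its reverse complement CACGT, a form of the core letters of the site that hypoxia-inducible factors bind. Other forms of this core, such as GCGTG, were neither marked nor counted. They lie at chr4:116841226-116841525 on the minus strand (Hk2), chr10:55868936-55869235 on the plus strand (Eno3), chr4:106866079-106866378 on the plus strand (Suclg1), chr1:106507842-106508141 on the plus strand (Ldha) and chr1:250672902-250673201 on the plus strand (Pgam1).
Hk2: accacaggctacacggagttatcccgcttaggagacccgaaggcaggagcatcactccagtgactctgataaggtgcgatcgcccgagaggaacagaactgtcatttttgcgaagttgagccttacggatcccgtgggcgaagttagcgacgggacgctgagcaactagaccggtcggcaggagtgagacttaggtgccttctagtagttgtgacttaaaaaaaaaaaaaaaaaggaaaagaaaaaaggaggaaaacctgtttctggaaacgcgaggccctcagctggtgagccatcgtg
Eno3: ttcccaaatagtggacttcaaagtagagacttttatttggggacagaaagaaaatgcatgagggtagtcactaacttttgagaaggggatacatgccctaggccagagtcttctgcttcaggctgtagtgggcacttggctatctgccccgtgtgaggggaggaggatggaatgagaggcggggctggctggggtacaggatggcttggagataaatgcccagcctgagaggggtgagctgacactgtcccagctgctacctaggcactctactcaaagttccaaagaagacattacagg
Suclg1: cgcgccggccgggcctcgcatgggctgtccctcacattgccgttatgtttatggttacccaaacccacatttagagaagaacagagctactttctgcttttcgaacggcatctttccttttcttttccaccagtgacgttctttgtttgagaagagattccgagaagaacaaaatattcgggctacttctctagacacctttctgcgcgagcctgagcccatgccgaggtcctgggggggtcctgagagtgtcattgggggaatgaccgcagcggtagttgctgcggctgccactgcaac
Ldha: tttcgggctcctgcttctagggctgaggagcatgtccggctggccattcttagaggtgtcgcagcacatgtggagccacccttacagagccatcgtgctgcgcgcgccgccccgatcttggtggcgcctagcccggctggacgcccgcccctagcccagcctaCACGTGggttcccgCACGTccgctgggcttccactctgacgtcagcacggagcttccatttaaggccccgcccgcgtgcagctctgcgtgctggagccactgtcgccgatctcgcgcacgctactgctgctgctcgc
Pgam1: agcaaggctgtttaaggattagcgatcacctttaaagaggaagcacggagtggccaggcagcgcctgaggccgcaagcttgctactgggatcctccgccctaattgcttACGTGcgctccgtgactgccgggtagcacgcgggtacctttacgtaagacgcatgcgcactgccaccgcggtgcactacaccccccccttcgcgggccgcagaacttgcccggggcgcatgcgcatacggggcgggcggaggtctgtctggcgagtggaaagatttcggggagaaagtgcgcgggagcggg

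These letters were absent from the windows of Hk2, Eno3 and Suclg1, present 1 time in that of Pgam1 and 3 times in that of Ldha, where a CACGTG counts on both strands. Over all 33469 RefSeq promoters of this length, 19.3% held ACGTG on either strand. Of 51 promoters found for 47 of the listed genes, 16 (31.4%) held it, with 10 of 23 among glycolysis genes and 5 of 13 among TCA cycle genes. The promoters of the listed genes were also richer in G and C, with a median of 60% against 51.7% over all promoters. The E-box CACGTG, which contains ACGTG and is bound by Myc, was found in 4 of the 51 promoters (7.84%), those of Ldha, Ogdh, Pdhb and Pfkfb3, and in 6.42% of all promoters. A match describes letters in this window and is no measured binding.

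The first steps after hexokinase were near level, apart from the liver-type phosphofructokinase. Of the 7 genes of upper glycolysis, which turn glucose phosphate into triose phosphates, 6 were higher in the MSCT group and 1 was lower, with a median of 0.11, and none had an unadjusted limma p under 0.05. Pfkl, the liver-type subunit of the committing enzyme phosphofructokinase, read 12.01 and 12.38 in the control rats and 12.65 and 12.84 in the MSCT rats, a difference of 0.55 (SE 0.23, adjusted p = 0.448). Its groups did not overlap, and the difference was 0.37 without control replicate 1 and 0.73 with control replicate 2 left out instead. The muscle-type subunit Pfkm had a difference of -0.21 and the platelet-type Pfkp one of 0.17. The log2 ratio of Pfkl to Pfkm was 0.76 higher in the MSCT group, without overlap of the arrays (exact permutation p = 0.333). That of Aldoc to Aldoa differed by -0.19 and overlapped between groups. The isomerase Gpi (0.11), the aldolases Aldoa (0.22) and Aldoc (0.03) and the triose phosphate isomerase Tpi1 (0.07) overlapped between groups.

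The 4 Pfkfb genes encode enzymes that make and remove the allosteric activator of phosphofructokinase, and none of their brightest rows had an unadjusted limma p under 0.05. Their differences were 0.27 for Pfkfb1, -0.27 for Pfkfb2, -0.06 for Pfkfb3 and 0.24 for Pfkfb4. Pfkfb1, the dimmest of the 49 genes, differed as much within groups as between them. Pfkfb2, the heart-type enzyme, had 3 rows, all lower in the MSCT group. The row used (NM_080477) and NM_001033965 (-0.63) had unadjusted p-values over 0.05, whereas the row NM_001033964 read 9.33 and 9.15 in the control rats and 8.66 and 8.25 in the MSCT rats, a difference of -0.78 with an unadjusted limma p under 0.05 (adjusted p = 0.351). The rows of this gene therefore differ in size but not in sign.

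Lower glycolysis, from glyceraldehyde phosphate to pyruvate, had 6 of 8 genes lower and 2 higher, with a median of -0.18. Both MSCT arrays lay below both controls for 5 of the 8 genes, against 24.5% of all rows. Eno3, the enolase of striated muscle (row NM_012949), read 12.76 and 13.01 in the control rats and 11.90 and 12.42 in the MSCT rats. Its MSCT arrays were both lower, the first more so than the second. The difference was -0.72 (SE 0.26), 1.65-fold lower, with a limma p of 0.047 and an adjusted p of 0.413. The unadjusted limma p was above 0.05 (0.0762, 0.160 and 0.226) without control replicate 1, control replicate 2 or MSCT replicate 1, and also with array weights (0.0542), and the difference ranged from -0.98 to -0.46 over the arrays left out.

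Eno1, the enolase of most tissues, read 13.53 and 13.54 in the control rats and 13.49 and 13.47 in the MSCT rats, almost the same level throughout. Eno2, the neuronal enolase, read 11.05 and 11.05 in the control rats and 11.41 and 11.73 in the MSCT rats, a difference of 0.52 (adjusted p = 0.438). The MSCT arrays thus lay below the controls for Eno3 and Eno1 and above them for Eno2. The log2 ratio of Eno3 to Eno1 differed by -0.67, without overlap of the arrays.

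The muscle form was also below its controls among the phosphoglycerate mutases. Not all muscle forms were: Pfkm (-0.21) overlapped between groups, and the fructose bisphosphatase Fbp2 (0.33) was higher on both MSCT arrays. Pgam2, the muscle form, read 10.09 and 9.64 in the control rats and 9.11 and 9.45 in the MSCT rats, a difference of -0.58 (adjusted p = 0.474) that was -0.36 without control replicate 1 and -0.81 with control replicate 2 left out instead. Pgam1, the form of most tissues, read 12.18 and 12.30 in the control rats and 12.59 and 12.54 in the MSCT rats, a difference of 0.33 (adjusted p = 0.543). Neither gene overlapped between groups, and the log2 ratio of Pgam2 to Pgam1 differed by -0.91. Of 10 smooth muscle markers 5 were measured, with summed intensities of 141287 to 171485 in the control rats and 154976 to 159204 in the MSCT rats and 0 at an unadjusted limma p under 0.05. Of 12 skeletal muscle markers 6 were measured, and their sum was 2059 to 3106 in the control rats and 5394 to 7773 in the MSCT rats, with 2 higher and with Myh4, Tnni2 and Pvalb blank. The sums lay apart through Acta1, with intensities of 1279 and 831 in the control rats and 6013 and 3095 in the MSCT rats. Without Acta1 the sums, added after seeing the data, overlapped at 1228 to 1827 and 1761 to 2299. Acta1, Actn3 and Tnnt3 were each higher on both MSCT arrays, and the other 3 of the 6 markers overlapped between groups. The part of muscle cells in the values of Eno3 and Pgam2 was not tested.

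Gapdh, which oxidizes glyceraldehyde phosphate and often serves as a reference gene, read 15.26 and 15.08 in the control rats and 15.01 and 14.95 in the MSCT rats. It was slightly lower on both MSCT arrays, by -0.19 on average (adjusted p = 0.722). Pgk1, the first enzyme of the pathway to make ATP, had a difference of 0.30 (0.04 without control replicate 1 and 0.55 without control replicate 2), and the pyruvate kinases Pkm and Pklr had -0.17 and -0.23. Lactate dehydrogenase, which interconverts pyruvate and lactate, had -0.10 for the A subunit Ldha and -0.31 for the B subunit Ldhb. None of these 6 genes had an unadjusted limma p under 0.05.

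**Figure D2:**
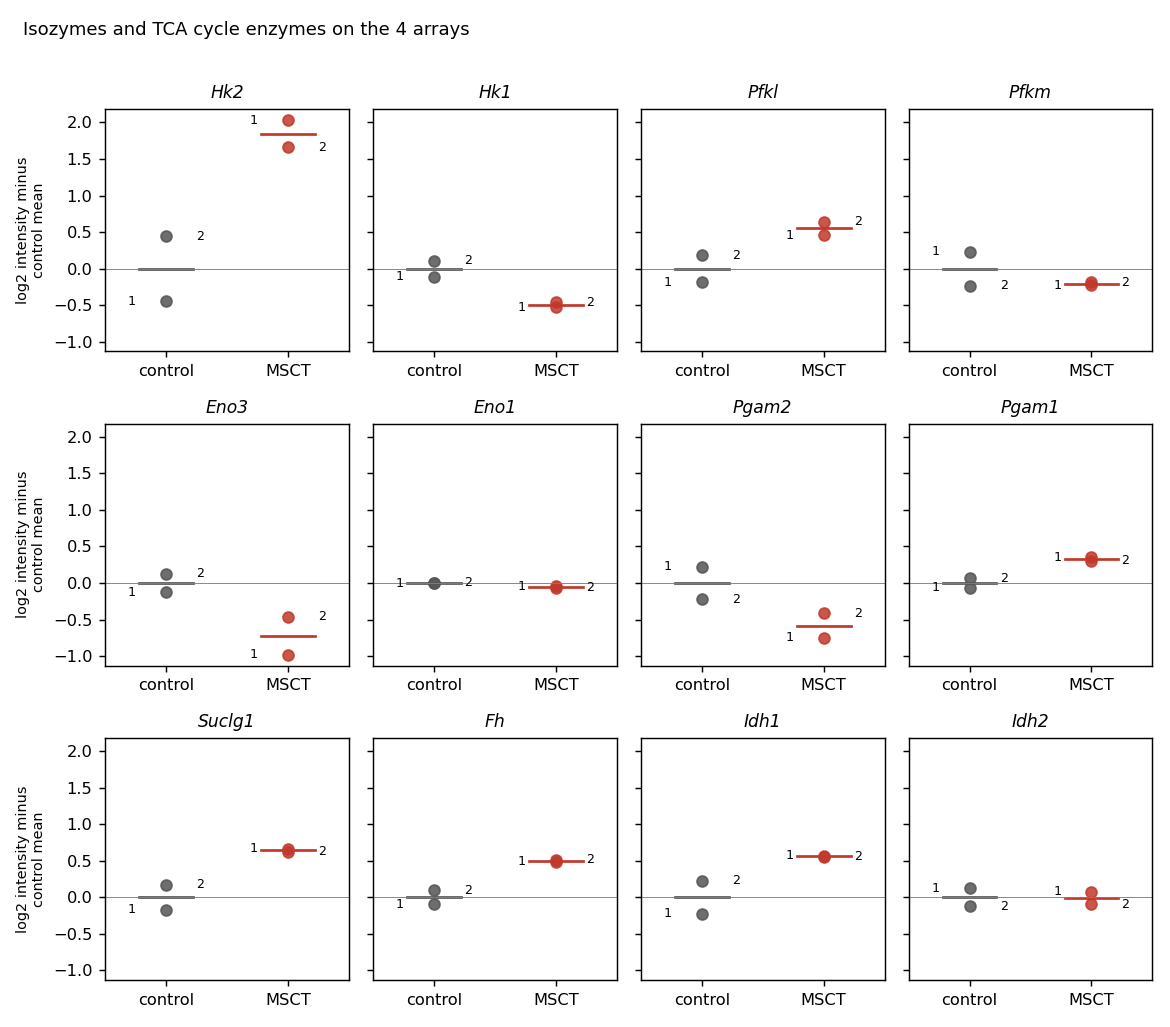
Log2 intensity of 12 enzymes on the 4 arrays, minus the control mean of each gene (points, numbered by replicate within each group; bars, group means), on 1 common vertical axis. Hk2 is high on both MSCT arrays while Hk1 is below its controls, the muscle forms Eno3 and Pgam2 are below theirs, and Suclg1, Fh and Idh1 lie above theirs.

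Side by side, glycolysis and the TCA cycle differed more in spread than in center. The 19 measured glycolysis genes (hexokinases, upper and lower glycolysis and lactate dehydrogenases, of 20 listed) had a median difference of -0.05, with 9 higher and 10 lower and a range from -0.72 to 1.85. The 13 measured genes of the TCA cycle (pyruvate dehydrogenase complex and mitochondrial enzymes, of 14 listed) had a median of 0.05, with 8 higher and 5 lower and a range from -0.20 to 0.64. Without Hk2 the glycolysis genes had a median of -0.08 and a range from -0.72 to 0.55. The median size of a difference was 0.22 for glycolysis and 0.09 for the TCA cycle. It was 0.28 over all rows and 0.21 over the brighter rows. Replicates were also closer together for the TCA cycle, with a median SD of 0.07 among controls and 0.05 among MSCT rats. The same values were 0.18 and 0.10 for glycolysis, 0.22 and 0.17 over all rows, and 0.16 and 0.11 over the brighter rows. The 95% interval lay within a 2-fold change for 11 of the 13 TCA cycle genes and 14 of the 19 glycolysis genes. It did so for 6756 of the 9175 brighter rows. No test was made of the difference between these lists, whose genes are not replicates.

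**Figure D3:**
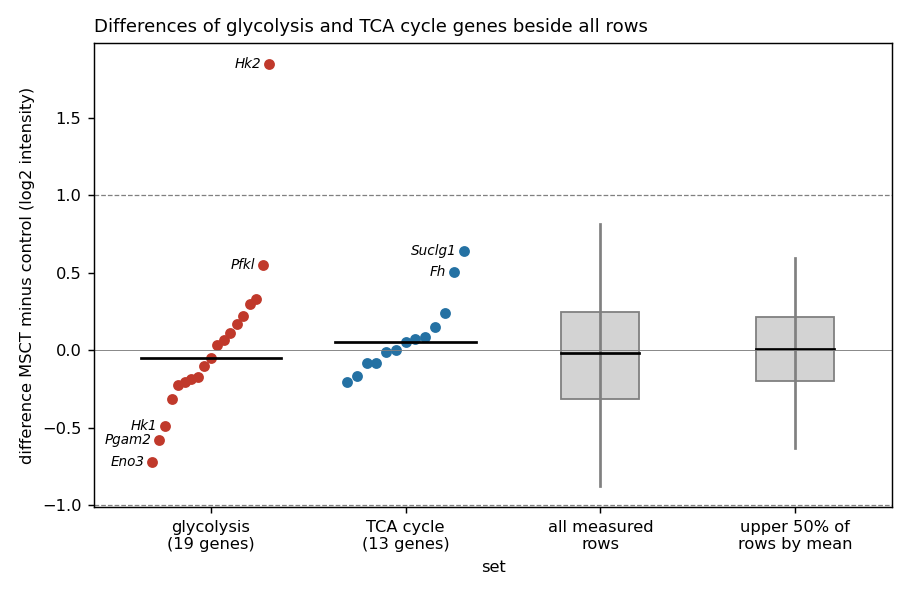
Difference MSCT minus control (log2 intensity, vertical axis) of 19 glycolysis genes and 13 TCA cycle genes (points; bars, medians), beside all measured rows and the brighter 50% of rows (boxes, 25th to 75th percentile; vertical lines, 5th to 95th percentile; bars, medians; dashed lines, 2-fold). Both medians sit near 0, at -0.05 and 0.05, and Hk2 alone passes the 2-fold line.

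Within mitochondria, the pyruvate dehydrogenase complex was at nearly the same level in both groups. Its 4 genes (Pdha1 and Pdhb for the first enzyme, Dlat for the acetyltransferase and Dld for the shared lipoamide dehydrogenase) had differences of -0.08, 0.15, -0.09 and 0.07, and all 4 intervals excluded a 2-fold change. Of the 9 measured mitochondrial TCA cycle enzymes, 7 had differences between -0.20 and 0.24. These were citrate synthase Cs (-0.20), the NADP-linked isocitrate dehydrogenase Idh2 (-0.01), the 3 subunits of the NAD-linked enzyme Idh3a (-0.17), Idh3b (0.05) and Idh3g (0.00), the oxoglutarate dehydrogenase Ogdh (0.09) and malate dehydrogenase Mdh2 (0.24). None of the 7 had an unadjusted limma p under 0.05.

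Suclg1 and Fh, neighbors in the order of the cycle apart from succinate dehydrogenase, were the 2 exceptions. Suclg1, the alpha subunit of succinyl-CoA ligase (row NM_053752), read 12.60 and 12.94 in the control rats and 13.43 and 13.39 in the MSCT rats. Both MSCT arrays were higher and close together. The difference was 0.64 (SE 0.21), or 1.56-fold, with a limma p of 0.035 and an adjusted p of 0.381. Without control replicate 1, MSCT replicate 1 or MSCT replicate 2 the limma p was 0.109, 0.135 and 0.118, and the difference stayed between 0.47 and 0.81 whichever array was left out. Fh, the fumarase, read 11.83 and 12.02 in the control rats and 12.41 and 12.44 in the MSCT rats, again without overlap, with a difference of 0.50 (SE 0.19, adjusted p = 0.423).

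The cytosolic counterparts of TCA cycle enzymes were not uniform. Idh1, which makes NADPH in the cytosol, read 11.97 and 12.42 in the control rats and 12.76 and 12.75 in the MSCT rats, a difference of 0.56 (limma, adjusted p = 0.450) that was 0.34 without control replicate 1 and 0.79 without control replicate 2. Aco1, the cytosolic aconitase that also acts as an iron-responsive RNA-binding protein, read 12.11 and 12.27 in the control rats and 12.56 and 12.79 in the MSCT rats, a difference of 0.48 (limma, adjusted p = 0.452). Mdh1, the cytosolic malate dehydrogenase of the malate shuttle, differed by -0.14. All 3 genes kept their groups apart, Idh1 and Aco1 above and Mdh1 below the controls. Groups were also apart for 45.8% of all rows and 50.9% of the brighter rows. The log2 ratio of Idh1 to Idh2 differed by 0.57 and that of Mdh1 to Mdh2 by -0.37, both without overlap of the arrays. Other isozyme ratios overlapped between groups, among them Ldhb to Ldha (-0.21) and Pklr to Pkm (-0.06). The share of such ratios without overlap over other gene pairs was not computed.

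**Figure D4:**
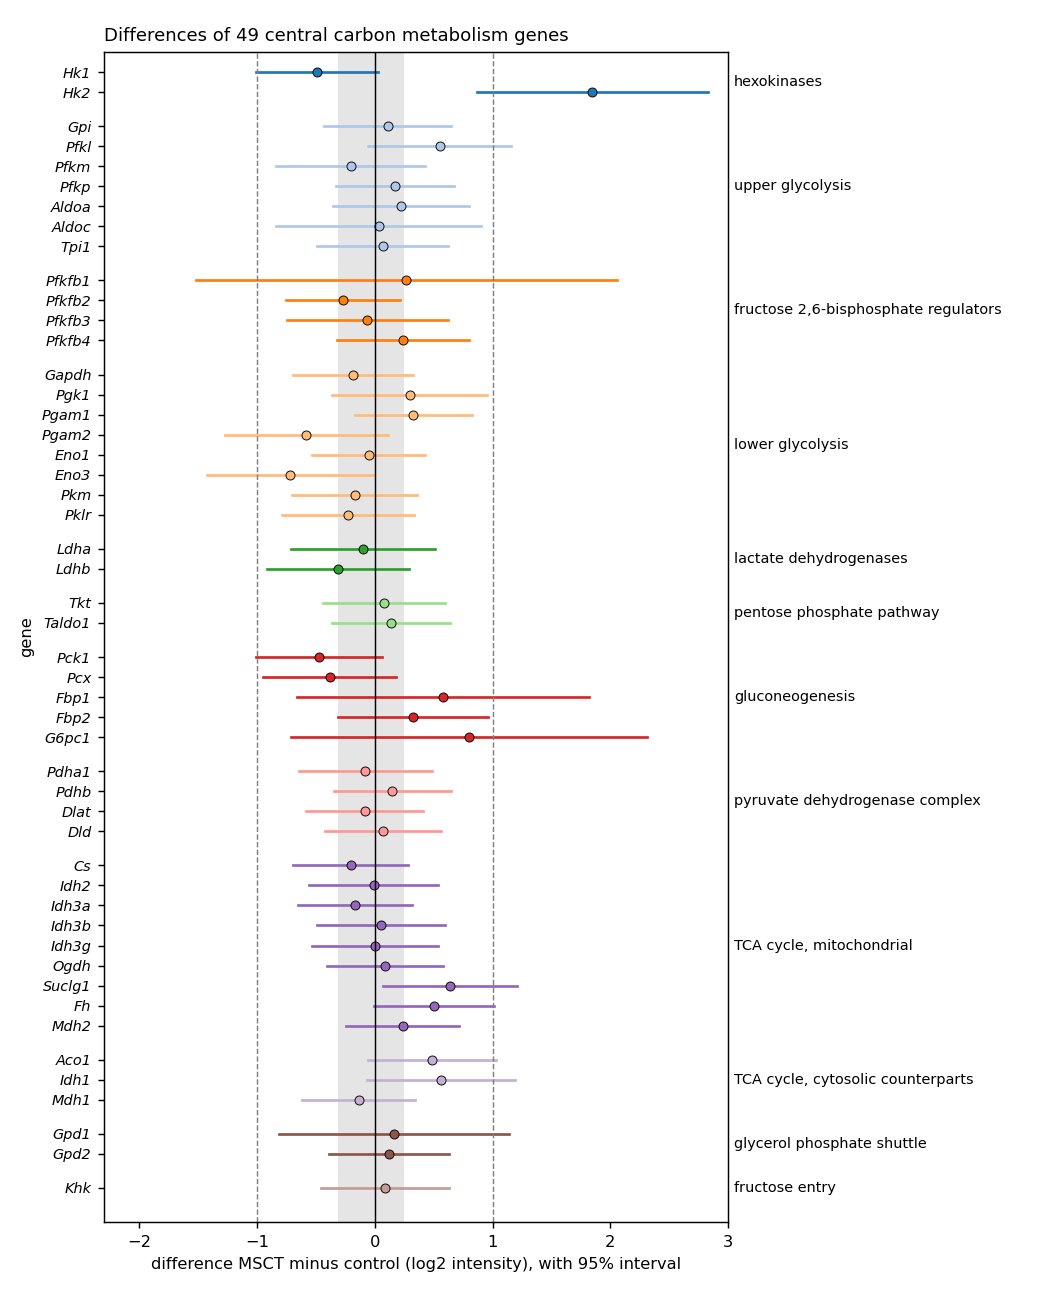
Difference MSCT minus control of each of the 49 genes (points, log2 intensity on the horizontal axis) with its 95% limma interval (lines), grouped by role; dashed lines mark 2-fold and the gray band the middle 50% of all rows. The intervals of Hk2 and Suclg1 lie above 0 and that of Eno3 just below it.

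Of the 5 genes of gluconeogenesis, the reverse route to glucose, 3 were higher and 2 lower, and none had an unadjusted limma p under 0.05. Pck1, the cytosolic phosphoenolpyruvate carboxykinase, read 14.28 and 14.49 in the control rats and 13.99 and 13.83 in the MSCT rats, a difference of -0.47 (adjusted p = 0.459). Pyruvate carboxylase (Pcx, listed in RefSeq as Pc) differed by -0.38 (adjusted p = 0.533). Neither gene overlapped between groups, with the MSCT arrays lower for both. Fbp1 and Fbp2, the liver and muscle fructose bisphosphatases, had differences of 0.58 and 0.33, and Fbp1 overlapped between groups. Without control replicate 1 these differences were 0.02 and 0.09, and without control replicate 2 they were 1.14 and 0.56. The log2 ratio of Fbp2 to Fbp1 differed by -0.25 and overlapped between groups.

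G6pc1, the glucose phosphatase that releases free glucose, read 9.42 and 11.03 in the control rats and 11.00 and 11.06 in the MSCT rats. Only control replicate 1 was low, and the other 3 arrays were level. Its difference of 0.80 (adjusted p = 0.610) was 1.60 without control replicate 2 and 0.00060 without control replicate 1. Fbp1 likewise was lowest on control replicate 1, at 7.90 against 9.02 on control replicate 2 and 8.72 and 9.36 in the MSCT rats. Without control replicate 2, both Fbp1 and G6pc1 passed the screen. Slc2a2, a glucose and fructose carrier of absorptive cells, was low on the same array, with 7.67 and 9.87 in the control rats and 10.02 and 9.79 in the MSCT rats (adjusted p = 0.594). Small intestinal absorptive markers (8 of 11 measured) summed to 7868 on control replicate 1, 12783 on control replicate 2 and 16221 to 17369 in the MSCT rats, with 4 of 8 higher at an unadjusted limma p under 0.05. The part of these cells in the values of G6pc1, Fbp1 and Slc2a2 was not tested.

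The remaining genes were close to level. The pentose phosphate enzymes Tkt and Taldo1, which rearrange sugars to feed nucleotide synthesis and glycolysis, had differences of 0.08 and 0.14. Gpd1 and Gpd2, the glycerol phosphate shuttle that carries reducing power into mitochondria, had 0.16 and 0.12, and Khk, which lets fructose in, had 0.09. The interval of Gpd1 reached past 2-fold, and those of the other 4 genes did not.

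Further genes of the same pathways and their regulators were read from lists of 79 genes, of which 55 were measured, 5 were blank and 19 had no row. At an unadjusted limma p under 0.05, 3 of the 55 were higher and 4 were lower, with 12.7% of the 55 called against 12.0% of all rows. Of the 7 genes 6 belong to the list of 14 regulators, of which 2 were higher and 4 lower. No other enzyme of glycolysis (5 measured), of the pentose phosphate pathway (3), of gluconeogenesis (2) or of the TCA cycle and its side reactions (13), and no sugar or lactate carrier (11), had an unadjusted limma p under 0.05. All 13 intervals of the last enzyme list lay within 2-fold, among them Sdha (-0.11), Sdhc (0.13) and Sdhd (-0.03). Those of 6756 of the 9175 brighter rows did so too.

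Pdk4, the kinase that switches off the pyruvate dehydrogenase complex, was past the screen. It read 8.40 and 8.58 in the control rats and 9.56 and 9.79 in the MSCT rats. Both MSCT arrays were well above both controls. The difference was 1.19 (SE 0.21), with a limma p of 0.003 and an adjusted p of 0.260. The related kinases Pdk1 (0.10) and Pdk2 (-0.03) and the opposing phosphatases Pdp1 (-0.36) and Pdp2 (-0.35) did not pass an unadjusted p of 0.05.

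Among the transcription regulators, Hif1a, the oxygen-sensitive subunit that turns on glycolysis genes, read 10.52 and 10.92 in the control rats and 11.41 and 11.43 in the MSCT rats, a difference of 0.70 (adjusted p = 0.369). Epas1, its relative HIF-2 alpha, read 12.97 and 13.24 in the control rats and 12.51 and 12.56 in the MSCT rats, a difference of -0.57 (adjusted p = 0.403). The alpha subunits of these paired factors therefore differed in opposite directions. Myc, which drives growth and binds the E-box, read 10.50 and 10.02 in the control rats and 11.18 and 11.33 in the MSCT rats, a difference of 1.00 (adjusted p = 0.324), just under the 2-fold limit. The windows of Hk2, Eno3 and Suclg1 shown above held neither ACGTG nor CACGTG. This says nothing of other forms of these sites, or of these factors elsewhere in the genes.

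The other 3 regulators with an unadjusted limma p under 0.05 were lower. Mlxipl, the carbohydrate response factor ChREBP, read 12.33 and 12.28 in the control rats and 11.68 and 11.67 in the MSCT rats, a difference of -0.64 (adjusted p = 0.339). Ppargc1a, the coactivator of mitochondrial genes PGC-1 alpha, read 11.59 and 11.94 in the control rats and 11.05 and 11.20 in the MSCT rats, a difference of -0.64 (adjusted p = 0.396). Neither gene overlapped between groups. Fgf21, a hormone of fasting and stress, read 8.04 and 7.79 in the control rats and 6.23 and 6.88 in the MSCT rats. Its difference of -1.36 passed the screen (adjusted p = 0.297), at a low signal on the array. The adjusted limma p exceeded 0.05 for each of the 7 genes. With 1 array left out the unadjusted limma p of 5 of them rose above 0.05. That of Hif1a was 0.0961, 0.108 and 0.114 without control replicate 1, MSCT replicate 1 and MSCT replicate 2, and that of Mlxipl was 0.0593, 0.103 and 0.107 without the same arrays. That of Epas1 was 0.131, 0.169 and 0.140 without control replicate 2, MSCT replicate 1 and MSCT replicate 2, and that of Ppargc1a was 0.127, 0.170 and 0.0996 without the same arrays. Myc had 0.0600 without MSCT replicate 2, and Pdk4 and Fgf21 stayed under 0.05. The leukocyte and neuron marker sums given above moved with the same groups, and their part in the values of these regulators was not tested.

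**Figure D5:**
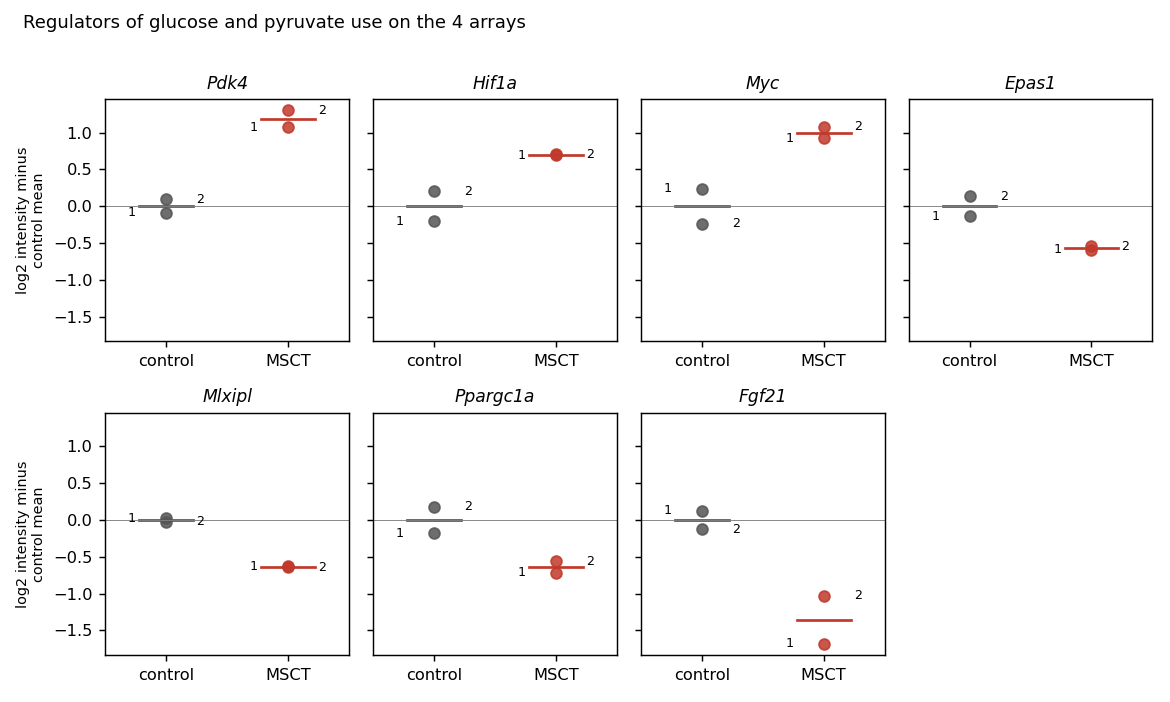
Log2 intensity of 7 regulators of glucose and pyruvate use on the 4 arrays, minus the control mean of each gene (points, numbered by replicate within each group; bars, group means), on 1 common vertical axis. Pdk4, Hif1a and Myc are higher on both MSCT arrays, by 1.19, 0.70 and 1.00 on average, and Epas1, Mlxipl, Ppargc1a and Fgf21 are lower.

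A test that takes each row's variance alone called other genes. By the methods' t-test, 9 of the 49 genes (18.4%) had an unadjusted p under 0.05, against 9.66% of all rows, and 0 also passed 2-fold, against 2.11% of all rows. The 9 genes were Cs, Eno1, Fh, Hk1, Idh3a, Mdh1, Mdh2, Pfkfb2 and Pgam1, with differences of 0.05 to 0.50 in size between replicates that lay close together. None of them was among the 3 genes that limma called, so the call of a single gene at this number of arrays depended on how the variance was estimated.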

How the data were processed

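RNA of colon tissue from control and MSCT rats was hybridized, as Cy3-labeled cDNA, to NimbleGen arrays of 1 color, 2 for each group. The authors used a GenePix scanner and NimbleScan, and deposited for each RefSeq transcript a linear intensity per array. RMA is named without settings in the submitters' processing notes, and how blank rows arose is not given in the sources used here. The table holds 26420 rows, of which 18350 were measured on all 4 arrays and 8070 were blank. Columns without a sample numbered 0. Median intensity ranged from 848 to 893. Arrays carry no read depth, and their number limits the precision. Whether the rats were handled apart, or their RNA pooled, is not given in the sample titles or the paper, so p-values measure only the spread between these samples.

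Each intensity was used as its log2, with nothing added, scaled or removed. The groups were compared over all measured rows by limma (version 3.58.1, default lmFit and eBayes, R 4.3.3) and p-values were adjusted by Benjamini-Hochberg over those rows. The methods name one-way analysis of variance, with LSD and Dunnett T3 tests for comparisons of more groups. For 2 groups it is a plain test with equal variances, and is called the methods' t-test. Tested on simulated data (5 simulations of MSCT against control, 18350 rows, 200 of them changed by a log2 size of 2), the screen recovered 99.4% of the changed rows. The simulated noise followed limma's own variance estimates, and the simulated size lay well above the fold limit. This share therefore checks the code and does not describe how often smaller differences would be found. Symbols came from RefSeq's table for GRCr8 (7010 of 7292 curated and 58 of 11058 predicted transcripts), as did promoters. Names and figures were made with Python 3.11.15, pandas 2.3.3 and matplotlib 3.10.9.

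The genes and lists were chosen with earlier results of these data known. Values on each array are given for listed genes with an unadjusted p under 0.05 or a difference over 2-fold, their isozymes or partner subunits and Gapdh, and pathway genes are named at an unadjusted p under 0.05. The array values of Pfkl, Pgam1, Pgam2, Fh, Idh1, Aco1, Pck1, Fbp1, G6pc1 and Slc2a2, the other rows of Pfkfb2 and the pathway genes named above that threshold were picked once their values had been seen. The alternatives comprised the methods' t-test, quantile normalization or equal medians of the arrays, removal of the dimmest 25% or 50% of rows, eBayes with trend and robust options, weights for arrays, a replicate block, each array left out, the row of a gene with the largest difference, fold limits of 1.5 or without p, linear group means and wider lists. The other measurements of the paper were not analysed here, and the values of some listed genes are not reported here.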

Additional observations from a re-analysis of the deposited data

How the results depend on the processing

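Hk2 kept its direction under every alternative run and stayed past the screen in all but the methods' t-test, under which 0 of the 49 genes passed. With a fold limit of 1.5 the count was 3 (Eno3, Hk2 and Suclg1), and with 1 array left out it ranged from 1 to 3, the 3 without control replicate 2 being Fbp1, G6pc1 and Hk2. The median difference of the glycolysis genes was -0.0086 without the dimmest 50% of rows and ranged from -0.087 to 0.026 with 1 array left out, turning above 0 without control replicate 1. That of the TCA cycle genes ranged from 0.0079 to 0.074 with 1 array left out. Over 56 genes and 721 alternative values, 695 kept their direction and 26, in 14 genes of which the largest difference was 0.27, turned. Linear group means turned Aldoc (-0.013) and Idh3g (-0.0012), quantile normalization Idh3g (-0.0094) and Pfkfb3 (0.0090), and equal array medians Idh2 (0.029). With 1 array left out, the ranges that crossed 0 were -0.018 to 0.24 for Gpi, -0.44 to 0.026 for Pfkm, -0.36 to 0.42 for Aldoc, -0.087 to 0.22 for Tpi1, -0.51 to 1.04 for Pfkfb1, -0.30 to 0.17 for Pfkfb3, -0.31 to 0.11 for Ldha, -0.010 to 0.17 for Tkt, -0.20 to 0.037 for Pdha1, -0.13 to 0.11 for Idh2, -0.089 to 0.19 for Idh3b, -0.12 to 0.13 for Idh3g, -0.24 to 0.56 for Gpd1 and -0.023 to 0.20 for Khk.

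The 850 rows of the table past the screen were 388 with the methods' t-test, 251 without the dimmest 50% of rows, 2019 with a fold limit of 1.5, 1565 without control replicate 2 and 1503 without MSCT replicate 2. No row passed an adjusted limma p of 0.05 (2196 had an unadjusted p under 0.05), against 4 without the dimmest 25% of rows, 247 without the dimmest 50% and 387 with the trend and robust options of eBayes. In the last pair of settings Hk2 had an adjusted p of 0.0366 and 0.0069 by limma, against 0.289 in the report, and unadjusted calls were 9 of the 44 genes left (20.5%, against 18.9% of rows) and 11 of 49 (22.4%, against 14.7%). They were 9 of 48 (18.8%, against 15.7%) without the dimmest 25% of rows. The replicate numbers were not treated as pairs: with 2 pairs, deviations of same-numbered arrays correlated at 0.23. With the replicate block 1 of the 49 genes passed the screen, Hk2. Low signal limits Pfkfb1, the dimmest of the genes, most. The cause of these changes was not tested.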
